A study of Mus musculus with 8 samples.

Results

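The hypothalamic neuropeptide genes Avp, Oxt, Pomc, Agrp, Hcrt, Pmch, Trh, Cartpt, Gal and Hdc were followed across the brains of mice with cerebral amyloid angiopathy (CAA) and wild-type (WT) mice. They were chosen by symbol, and all 10 were found among the 54532 genes of the count table. All 10 were also among the 17182 genes with enough counts to be tested. Hdc encodes the enzyme that makes histamine, and the others encode peptide precursors. In CAA, amyloid-beta is deposited in vessel walls of the brain, and the stated interest of the study was how chronic stress acts on it. The 8 RNA libraries fell into 4 groups of 2: CAA mice under chronic restraint stress (CAA stress), CAA mice given a mock treatment (CAA mock), WT mice under the same restraint (WT stress) and WT mice given the mock treatment (WT mock). Per the design text, mice were perfused with PBS and 0.5 of the brains went to RNA extraction, which does not say whether that means a hemisphere of each. The sources used here do not give the model or allele behind CAA, the strain or the age. A library is written as its group and replicate number, such as WT mock 1. No label ties a replicate to its own animal. Xist and Y-linked counts marked CAA stress 1 and WT mock 1 as female and the other 6 libraries as male, so the replicates of CAA stress and of WT mock came from different animals. For CAA mock and WT stress this is not known, and their spread may be technical.

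The hypothalamus is a small region at the base of the brain in which separate groups of neurons each make their own peptide. Large neurons of the paraventricular and supraoptic nuclei make vasopressin (Avp) or oxytocin (Oxt) and release them from the posterior pituitary. Arcuate neurons make pro-opiomelanocortin (Pomc), whose product alpha-MSH suppresses feeding, or agouti related peptide (Agrp), which drives it. Neurons of the lateral hypothalamus make hypocretin, also called orexin (Hcrt), which sustains wakefulness, or melanin-concentrating hormone (Pmch). Histamine neurons lie in the tuberomammillary nucleus at the back of the region. Thyrotropin-releasing hormone (Trh), the CART peptide (Cartpt) and galanin (Gal) are made in the hypothalamus and in other brain regions too.

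The libraries held 17275201 to 18894657 counts, and all 8 general markers of neurons and glia were tested, with a summed level of 8718 to 15821 CPM (counts scaled to library size, TMM-normalised). Region markers differed between replicates of the same group, and in more than a single group. On the log2 scale, centred on the mean of the 8 libraries, the mean of 12 striatal markers was -1.94 for CAA mock 2 and -1.93 for WT mock 1, against 0.036 to 0.99 in the other 6 libraries. The 11 tested markers of the hypothalamus that are not peptides lay at 1.07 in CAA stress 1, 0.43 in CAA stress 2, 0.84 in CAA mock 1, -0.38 in CAA mock 2, -0.65 in WT stress 1, 0.27 in WT stress 2, -1.52 in WT mock 1 and -0.060 in WT mock 2. Results are therefore also given without CAA mock 2 and WT mock 1, the 2 libraries low in striatal markers. WT stress 1 was kept, although its hypothalamic markers lay below those of CAA mock 2. In tissue RNA, fewer cells of a type and less RNA per cell cannot be told apart.

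Hcrt and Pmch, the peptide genes of the lateral hypothalamus, were abundant in 1 library of each CAA group and near 0 elsewhere. Hcrt had 200 and 3 counts in CAA stress, 226 and 2 in CAA mock, 0 and 3 in WT stress, and 1 and 0 in WT mock (replicate 1, then 2). Pmch had 525 and 4 counts in CAA stress, 306 and 7 in CAA mock, 9 and 4 in WT stress, and 2 and 3 in WT mock. Replicate 1 of each CAA group stood apart from replicate 2 of the same group for both genes, and the CAA and WT libraries overlapped. A count of 0 allows up to 3 counts, or 0.164 CPM in WT stress 1 and 0.168 CPM in WT mock 2 (counting error only).

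The starts of both genes are shown because each was the gene closest to the other in its levels across the libraries. Each sequence is the 250 bases before the RefSeq start in GRCm38.p6 (the mm10 build), read along the gene. The Hcrt window is chr11:100762932-100763181 on the minus strand and the Pmch window is chr10:88090822-88091071 on the plus strand. Capitals mark a match to any of 4 short motifs on either strand: TATAAA (a core promoter motif), TGACG (part of the cAMP element), TGTTCT (part of the glucocorticoid element) and AGGTCA (part of hormone receptor elements). No matches overlapped in the sequences printed here.
Hcrt: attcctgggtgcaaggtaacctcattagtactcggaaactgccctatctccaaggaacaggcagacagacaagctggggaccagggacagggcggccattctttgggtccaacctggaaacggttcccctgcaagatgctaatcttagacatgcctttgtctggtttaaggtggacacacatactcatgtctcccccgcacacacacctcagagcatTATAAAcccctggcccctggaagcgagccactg
Pmch: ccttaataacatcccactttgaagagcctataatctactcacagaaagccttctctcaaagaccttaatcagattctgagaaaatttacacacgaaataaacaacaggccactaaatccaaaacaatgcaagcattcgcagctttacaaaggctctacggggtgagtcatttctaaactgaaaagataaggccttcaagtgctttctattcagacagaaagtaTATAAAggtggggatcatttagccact
Both windows held TATAAA, 33 to 28 bases before the start in Hcrt and 27 to 22 in Pmch, and no match to the other 3 motifs. TATAAA occurred in 12.4% of 32851 such windows, TGACG in 17.8%, TGTTCT in 16.1% and AGGTCA in 14.0%. Of the 9 members with a window, 3 held TATAAA (Hcrt, Pmch and Pomc), 2 held TGACG (Cartpt and Trh), 2 held TGTTCT (Hdc and Trh) and 3 held AGGTCA (Oxt, Pomc and Trh). Agrp had no entry. A match is a run of letters, not a binding site.

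**Figure D1:**
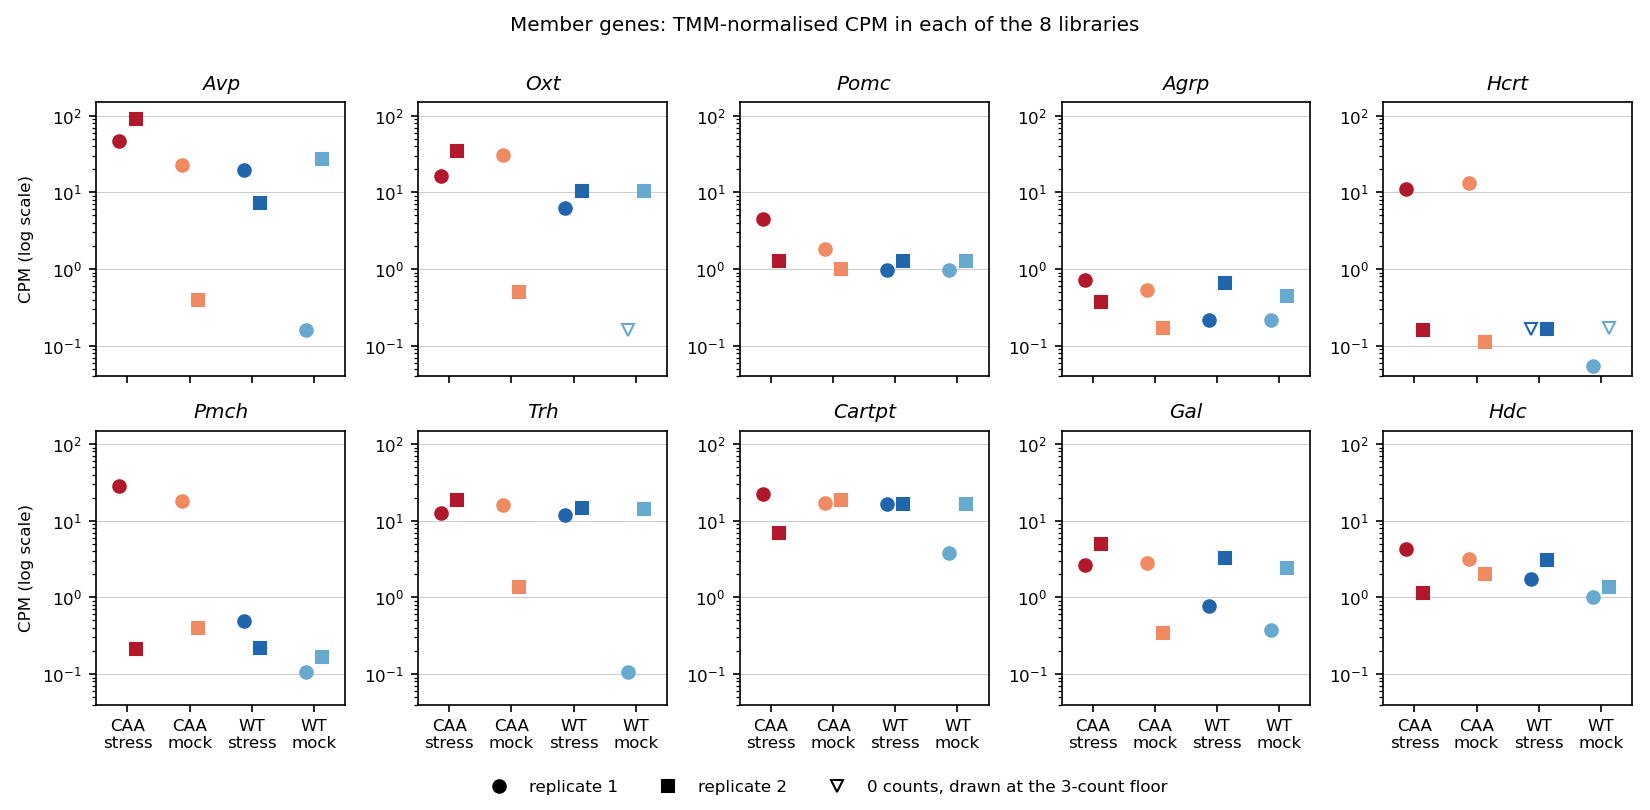
Level of each of the 10 genes in each library, in TMM-normalised CPM on a log axis, with CAA stress, CAA mock, WT stress and WT mock from left to right and a marker shape for each replicate number. Hcrt and Pmch are high in CAA stress 1 and CAA mock 1, whereas Avp, Oxt and Trh are lowest in WT mock 1 and CAA mock 2.

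The likeness of Hcrt and Pmch was measured as the root mean square difference of their centred log2 levels over the 8 libraries, where a smaller value means a more similar pattern. It was 0.72 for this pair, against a median of 2.69 between Hcrt and the other 14912 genes of at least 1 CPM. Genes of that level had a median log2 range of only 0.71 between libraries, so the 2.69 mostly reflects the spread of Hcrt itself. That median therefore does not show how unusual the likeness is. The next genes to Hcrt were C130021I20Rik and Calml4, both at 1.94. The libraries share tissue composition and depth, so the value is a description. Within a library, Hcrt made up 27.6% of the counts of the pair in CAA stress 1 (95% interval 24.4% to 31.0%, exact binomial) and 42.5% in CAA mock 1 (38.2% to 46.8%). The intervals cover counting error only and do not overlap. Pmch lies on chromosome 10 from 88091072 to 88092375 and overlaps Parpbp, a DNA repair gene on the other strand, by 944 bases. Whether counting used strand is not given, but Parpbp had 1 to 11 counts per library. Hcrt (chromosome 11, 100761069 to 100762931) overlaps no other gene of the table.

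Averaged over stress and mock, Hcrt lay at 6.09 ± 6.94 CPM in CAA and 0.0548 ± 0.0780 CPM in WT (SD, n = 4 each), and Pmch at 11.8 ± 14.0 CPM in CAA and 0.247 ± 0.170 CPM in WT. The SD in CAA exceeded the mean for both. The log2 fold change was 6.78 ± 2.55 for Hcrt (SE; edgeR adjusted p = 0.597, DESeq2 adjusted p = 0.136). For Pmch it was 5.65 ± 2.22 (SE; edgeR adjusted p = 0.602, DESeq2 adjusted p = 0.0581). Neither passed the threshold of 0.05. The Hcrt value rests on 4 counts in all WT libraries together and depends on the small count that the fit adds. In limma on log2(FPKM + 1) the values were 2.06 ± 1.17 for Hcrt and 2.32 ± 1.37 for Pmch. Without CAA stress 1 and CAA mock 1, an alternative chosen after seeing the data, neither gene had enough counts to be tested.

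For stress averaged over genotype, the log2 fold change was 0.56 ± 3.35 for Hcrt and 1.0 ± 2.51 for Pmch (SE; edgeR adjusted p = 0.986 and 0.963). Hcrt lay at 2.81 ± 5.4 CPM under stress and 3.34 ± 6.57 CPM in mock libraries (SD, n = 4 each), so the mean level and the fold change differ in direction. The fold change averages the CAA and WT effects on the log scale. Pmch lay at 7.39 ± 14.2 CPM under stress and 4.64 ± 8.83 CPM in mock libraries. Markers of the choroid plexus, the tissue that secretes cerebrospinal fluid, lay at 1.93 in CAA stress 1, 1.05 in CAA mock 1 and 2.26 in WT stress 2 on the centred log2 scale, against -1.44 to -0.38 in the other 5 libraries. The part of brain region content in these values was not tested.

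**Figure D2:**
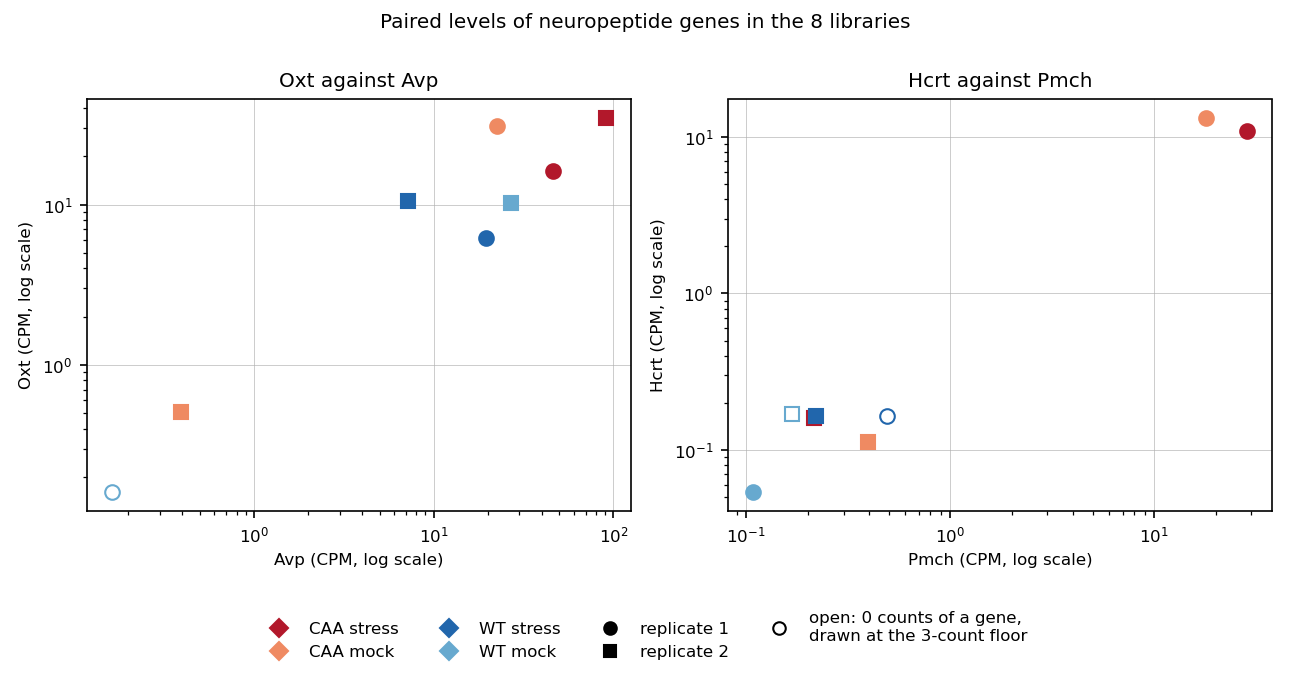
Levels of Oxt against Avp (left) and Hcrt against Pmch (right) in the 8 libraries, in CPM on log axes, coloured by group and shaped by replicate number, with open markers where a gene had 0 counts. CAA mock 2 and WT mock 1 lie at the low end for Avp and Oxt, and CAA stress 1 and CAA mock 1 stand alone at the high end for Hcrt and Pmch.

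Avp and Oxt were abundant in 6 libraries and nearly absent from CAA mock 2 and WT mock 1. Avp, the antidiuretic hormone gene, had 46.1 and 91.1 CPM in CAA stress, 22.5 and 0.394 CPM in CAA mock, 19.6 and 7.22 CPM in WT stress, and 0.161 and 26.9 CPM in WT mock (replicate 1, then 2). Oxt, which encodes the hormone of milk ejection and social bonding, had 16.2 and 34.6 CPM in CAA stress, 30.8 and 0.507 CPM in CAA mock, 6.19 and 10.5 CPM in WT stress, and 0 and 10.3 CPM in WT mock. The 2 low libraries held 7 and 3 Avp counts and 9 and 0 Oxt counts, and the 0 allows up to 0.161 CPM. Both CAA stress libraries were above both WT stress libraries for each gene, while the mock groups overlapped. Over all genes tested, 39.8% had no overlap between the 2 CAA stress and the 2 WT stress libraries.

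Avp and Oxt are neighbours on chromosome 2, on opposite strands and 3565 bases apart: Oxt (ENSMUSG00000027301) from 130576173 to 130577054 on the plus strand and Avp (ENSMUSG00000037727) from 130580620 to 130582554 on the minus strand. Neither overlaps another gene of the table. Their upstream windows are shown because they are neighbours with like levels, at chr2:130575919-130576168 for Oxt and chr2:130582589-130582838 for Avp, with motif matches again in capitals.
Oxt: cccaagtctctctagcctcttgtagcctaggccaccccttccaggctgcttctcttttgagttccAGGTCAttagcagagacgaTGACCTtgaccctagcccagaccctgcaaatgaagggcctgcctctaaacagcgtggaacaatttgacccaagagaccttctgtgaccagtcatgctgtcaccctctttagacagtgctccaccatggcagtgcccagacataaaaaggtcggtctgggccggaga
Avp: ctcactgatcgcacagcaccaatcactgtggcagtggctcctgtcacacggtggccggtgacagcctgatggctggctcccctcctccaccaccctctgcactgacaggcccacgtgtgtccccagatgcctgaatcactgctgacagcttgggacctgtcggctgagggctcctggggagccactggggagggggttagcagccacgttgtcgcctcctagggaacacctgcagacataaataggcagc
The Oxt window held AGGTCA 185 to 180 bases before the start and its reverse form 166 to 161 bases before it. The Avp window matched none of the 4 motifs. The root mean square difference between the genes was 0.91, and Oxt was the gene most like Avp of the 14912 compared (median 2.87). As for Hcrt, that median mostly reflects the spread of Avp itself. Oxt was closest to Trh, at 0.81.

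The balance between the neighbours fell into 2 sets among the 6 libraries where they were abundant. Avp made up 74.0% of the counts of the pair in CAA stress 1 (95% interval 71.3% to 76.5%, exact binomial), 72.5% in CAA stress 2 (70.6% to 74.3%), 76.0% in WT stress 1 (71.9% to 79.8%) and 72.4% in WT mock 2 (68.8% to 75.7%). It made up 42.2% in CAA mock 1 (39.0% to 45.5%) and 40.7% in WT stress 2 (35.3% to 46.3%). The first 4 intervals overlap each other, as do the last 2, and no interval of one set overlaps the other. They cover counting error only, not the spread between samples. Each set holds CAA and WT libraries, and the 2 WT stress replicates fall into different sets. In FPKM, which accounts for gene length, the ratio of Avp to Oxt was 2.44 to 2.95 in the first set and 0.638 and 0.680 in the second.

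For stress averaged over genotype, Avp lay at 41.0 ± 37.1 CPM under stress and 12.5 ± 14.2 CPM in mock libraries (SD, n = 4 each; log2 fold change 1.29 ± 1.52 SE, edgeR adjusted p = 0.930). Oxt lay at 16.9 ± 12.5 CPM under stress and 10.4 ± 14.4 CPM in mock libraries (log2 fold change 0.70 ± 1.51 SE, edgeR adjusted p = 0.958). Neither difference passed the test, and the arms overlapped. The stress values without CAA mock 2 and WT mock 1 were 0.30 ± 0.59 for Avp and -0.29 ± 0.35 for Oxt. In that fit each mock group is 1 library, which is assumed to vary like the others. The 2 libraries left out were the lowest for both genes, so leaving them out raises the mock mean.

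For CAA averaged over treatment, Avp lay at 40.02 ± 38.8 CPM in CAA and 13.5 ± 12.0 CPM in WT (SD, n = 4 each; log2 fold change 1.06 ± 1.51 SE, edgeR adjusted p = 0.870). Oxt lay at 20.5 ± 15.5 CPM in CAA and 6.75 ± 4.92 CPM in WT (log2 fold change 1.61 ± 1.52 SE, edgeR adjusted p = 0.794). Without CAA mock 2 and WT mock 1 the values were 1.05 ± 0.59 for Avp and 1.59 ± 0.36 for Oxt (edgeR adjusted p = 0.739 and 0.469). In those 6 libraries the lowest CAA value of Oxt was 16.2 CPM and the highest WT value 10.5 CPM, and 19.7% of all genes tested had no overlap in the same 6. With all 8 libraries Oxt overlapped between CAA and WT. Without CAA mock 1 alone the values changed sign, to -1.36 for Avp and -0.86 for Oxt. The summed level of the 18 hypothalamic markers was 49.8 to 54.5 CPM in CAA stress, 24.4 to 50.1 CPM in CAA mock, 22.2 to 41.7 CPM in WT stress and 8.98 to 29.3 CPM in WT mock, and its part in these values was not tested. Otp, 1 of these markers and a transcription factor of neuroendocrine neurons, is named after its values were seen. It had 111 and 99 counts in CAA stress and 90 and 50 in CAA mock. The WT counts were 25 and 27 under stress and 5 and 19 under mock. CAA and WT thus did not overlap, as for 4.77% of all genes tested. The log2 fold change of Otp for CAA was 2.29 ± 0.38 (SE; edgeR adjusted p = 0.207, DESeq2 adjusted p = 2.57e-05). Under mock it also passed in DESeq2 (adjusted p = 0.00998). Of the 11 tested markers only Otp, 1 gene, passed in DESeq2. All 11 were above 0 for CAA averaged, with a median of 0.76, and Nkx2-1 lay lowest at 0.14 ± 1.21 (SE).

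Trh and Gal followed a similar order, with smaller ranges. Trh had 12.6 and 18.6 CPM in CAA stress, 15.9 and 1.35 CPM in CAA mock, 12.0 and 14.8 CPM in WT stress, and 0.108 and 14.2 CPM in WT mock. Gal, a peptide of many hypothalamic and brainstem neurons, had 2.67 and 4.93 CPM in CAA stress, 2.80 and 0.338 CPM in CAA mock, 0.766 and 3.25 CPM in WT stress, and 0.377 and 2.41 CPM in WT mock. Outside CAA mock 2 and WT mock 1, the 6 Trh values spanned only 12.0 to 18.6 CPM. Gal was also low in WT stress 1. The gene most like Trh was Nkx2-1, a transcription factor of the ventral hypothalamus and other basal forebrain, at a root mean square difference of 0.56. It had 58 and 50 counts in CAA stress, 49 and 2 in CAA mock, 29 and 50 in WT stress, and 0 and 59 in WT mock. Gal was closest to Gabre, a GABA receptor subunit gene, at 0.42.

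Trh lay at 14.5 ± 3.0 CPM under stress and 7.90 ± 8.33 CPM in mock libraries (SD, n = 4 each; log2 fold change 0.88 ± 1.26 SE, edgeR adjusted p = 0.937). Without CAA mock 2 and WT mock 1 the stress value was -0.057 ± 0.22. The CAA value was 0.25 ± 1.26 (SE; edgeR adjusted p = 0.971), with 12.1 ± 7.60 CPM in CAA and 10.3 ± 6.89 CPM in WT. Gal lay at 2.90 ± 1.72 CPM under stress and 1.48 ± 1.31 CPM in mock libraries (log2 fold change 0.90 ± 0.81 SE, edgeR adjusted p = 0.920), and the stress value was 0.085 ± 0.54 without CAA mock 2 and WT mock 1. For CAA against WT, Gal lay at 2.69 ± 1.88 and 1.70 ± 1.36 CPM (log2 fold change 0.54 ± 0.81 SE, edgeR adjusted p = 0.872). The stress values of Trh and Gal were close to 0 without CAA mock 2 and WT mock 1. Both are mock libraries and the 2 lowest for each gene, so leaving them out lowers a stress value by itself. The part of region content was not tested.

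**Figure D3:**
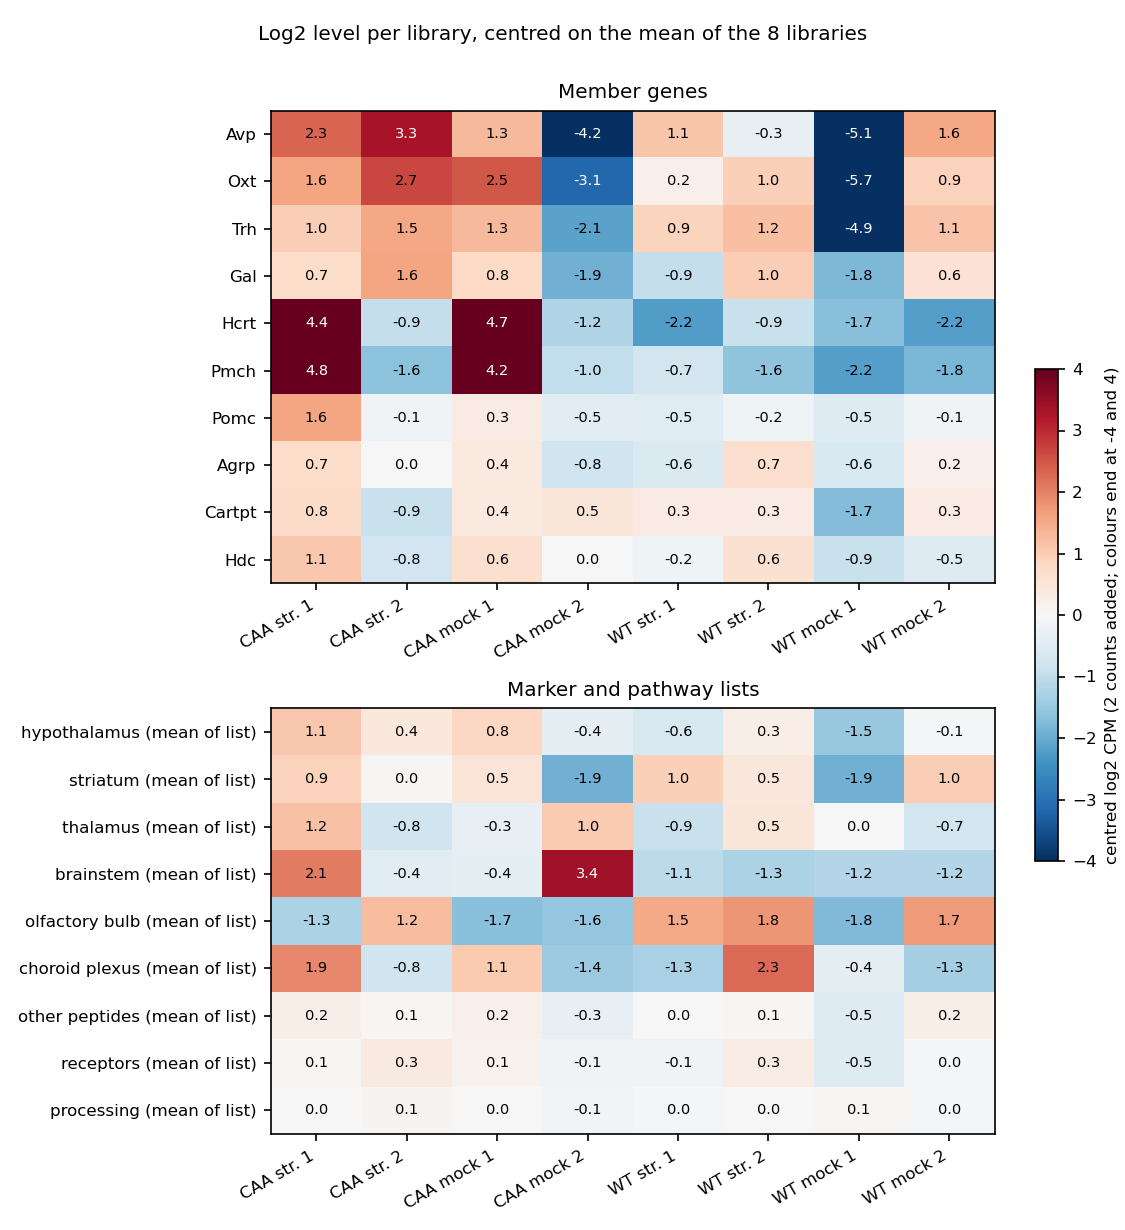
Log2 level of each of the 10 genes (top) and mean of each marker or pathway list (bottom) in each library, centred on the mean of the 8 libraries, with CAA libraries left of WT libraries. Red is above and blue below that mean, and WT mock 1 is below it for all 10 genes and for the hypothalamic and striatal markers.

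The arcuate genes Pomc and Agrp were low and varied less. Pomc, the precursor of ACTH and the melanocortins, had 4.47 and 1.29 CPM in CAA stress, 1.81 and 1.01 CPM in CAA mock, 0.985 and 1.27 CPM in WT stress, and 0.968 and 1.29 CPM in WT mock. CAA stress 1 was the highest library, at 82 counts, and the other 7 libraries held 18 to 31. Agrp, which blocks melanocortin receptors, had 13 and 7 counts in CAA stress, 9 and 3 in CAA mock, 4 and 12 in WT stress, and 4 and 8 in WT mock. The groups of Agrp overlapped throughout. Its annotated span of 70696 bases on chromosome 8 overlaps 7 other genes of the table, among them Ripor1 on the other strand by 16965 bases, so reads there may not be told apart without strand.

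Pomc gave the smallest unadjusted p of the members in 3 comparisons. It had a log2 fold change of 1.35 ± 0.60 for CAA under stress (SE; edgeR adjusted p = 0.5995), 1.02 ± 0.59 for stress in CAA (edgeR adjusted p = 0.696) and 1.03 ± 0.85 for the interaction (edgeR adjusted p = 0.995). Without CAA stress 1 these were 0.20, -0.12 and -0.12. Averaged over treatment, Pomc lay at 2.15 ± 1.59 CPM in CAA and 1.13 ± 0.175 CPM in WT (SD, n = 4 each; log2 fold change 0.83 ± 0.43 SE, edgeR adjusted p = 0.619). For stress it lay at 2.0 ± 1.65 CPM under stress and 1.27 ± 0.387 CPM in mock libraries (log2 fold change 0.51 ± 0.43 SE, edgeR adjusted p = 0.920). Of 11 pituitary markers, the hormone genes Prl, Gh, Cga and Fshb had 0 counts in all libraries. Tshb, another hormone gene, had 11 to 38 counts per library, and Lhb had 0 to 9. The 11 summed to 0.766 to 6.31 CPM, and Pax7 gave 3.72 CPM of the highest sum, in CAA mock 2. The part of pituitary tissue in the Pomc values was not tested. Agrp lay at 0.491 ± 0.234 CPM under stress and 0.340 ± 0.174 CPM in mock libraries, and at 0.445 ± 0.229 CPM in CAA and 0.386 ± 0.214 CPM in WT (SD, n = 4 each). The log2 fold changes of Agrp were 0.52 ± 0.63 for stress and 0.18 ± 0.63 for CAA (SE; edgeR adjusted p = 0.930 and 0.951).

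Cartpt, whose peptide acts in feeding and reward, had 22.2 and 6.91 CPM in CAA stress, 17.1 and 18.4 CPM in CAA mock, 16.4 and 16.3 CPM in WT stress, and 3.82 and 16.4 CPM in WT mock. It was low in WT mock 1 and CAA stress 2, and not in CAA mock 2, where Avp, Oxt, Trh and Gal were low. Hdc had 4.31 and 1.13 CPM in CAA stress, 3.15 and 2.03 CPM in CAA mock, 1.75 and 3.09 CPM in WT stress, and 1.02 and 1.35 CPM in WT mock. The CAA mock libraries were above the WT mock libraries for both genes, where 32.9% of all genes tested had no overlap. Mast cells also express Hdc, and their 8 markers summed to at most 0.394 CPM in a library, with 4 markers at 0 throughout.

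Hdc gave the smallest unadjusted p of the members for CAA under mock, with a log2 fold change of 1.12 ± 0.61 (SE; edgeR adjusted p = 0.998), and for stress in WT, with 1.03 ± 0.61 (edgeR adjusted p = 0.9999). Averaged, Hdc lay at 2.57 ± 1.42 CPM under stress and 1.89 ± 0.942 CPM in mock libraries (SD, n = 4 each; log2 fold change 0.55 ± 0.42 SE, edgeR adjusted p = 0.920). It lay at 2.65 ± 1.38 CPM in CAA and 1.80 ± 0.907 CPM in WT (log2 fold change 0.65 ± 0.42 SE, edgeR adjusted p = 0.681). Cartpt lay at 15.5 ± 6.34 CPM under stress and 13.9 ± 6.78 CPM in mock libraries, and at 16.1 ± 6.54 CPM in CAA and 13.2 ± 6.28 CPM in WT. The log2 fold changes of Cartpt were 0.21 ± 0.55 for stress and 0.32 ± 0.55 for CAA (SE; edgeR adjusted p = 0.966 and 0.894). Both were below 0 without CAA mock 2 and WT mock 1, at -0.12 ± 0.48 and -0.056 ± 0.48.

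None of the 10 genes passed in any of the 7 comparisons in edgeR or DESeq2. For CAA under stress, DESeq2 gave no adjusted p for Pomc, Agrp, Gal and Hdc, so it holds no result for them there. Agrp also had none for CAA averaged and CAA under mock. Genes without an adjusted p are counted as not passing in the DESeq2 shares below. At an unadjusted p under 0.05 in edgeR, 1 of 10 passed for CAA under stress, where 8.22% of all genes did, and 0 of 10 in each other comparison. In edgeR 0% of all genes tested passed the adjusted threshold for stress averaged, the interaction, stress in CAA and stress in WT, and 0.0116% for CAA averaged, CAA under stress and CAA under mock. The shares at an unadjusted p under 0.05 were 3.82% for stress averaged, 8.38% for CAA averaged, 3.46% for the interaction, 6.94% for stress in CAA, 1.59% for stress in WT and 4% for CAA under mock. In DESeq2 the adjusted threshold was passed by 0.0175% of genes for stress averaged, 0.268% for CAA averaged, 0.0233% for the interaction, 0.0815% for stress in CAA, 0% for stress in WT, 0.064% for CAA under stress and 0.116% for CAA under mock. In the averaged comparisons 0 of 10 genes had libraries that did not overlap between the arms, against 1.83% of all genes for stress and 4.77% for CAA. Between single groups of 2 libraries, 1 of 10 members had no overlap for stress in CAA, 2 for stress in WT, 3 for CAA under stress and 4 for CAA under mock, against 37.3%, 26.7%, 39.8% and 32.9% of all genes. All 10 fold changes of the averaged comparisons were above 0, with a median of 0.63 for stress and 0.74 for CAA, against medians of 0.0034 and 0.0011 over all genes tested. A common sign was also seen in lists of region markers. All 12 striatal and all 7 olfactory bulb markers lay above 0 for stress, with medians of 0.66 and 1.31. For CAA, all 9 thalamic and all 4 tested brainstem markers lay above 0, and all 7 olfactory bulb markers below it. Other lists were mixed, such as the thalamic markers for stress, with 5 above and 4 below 0. The members share libraries and tissue, so their common sign is a description.

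**Figure D4:**
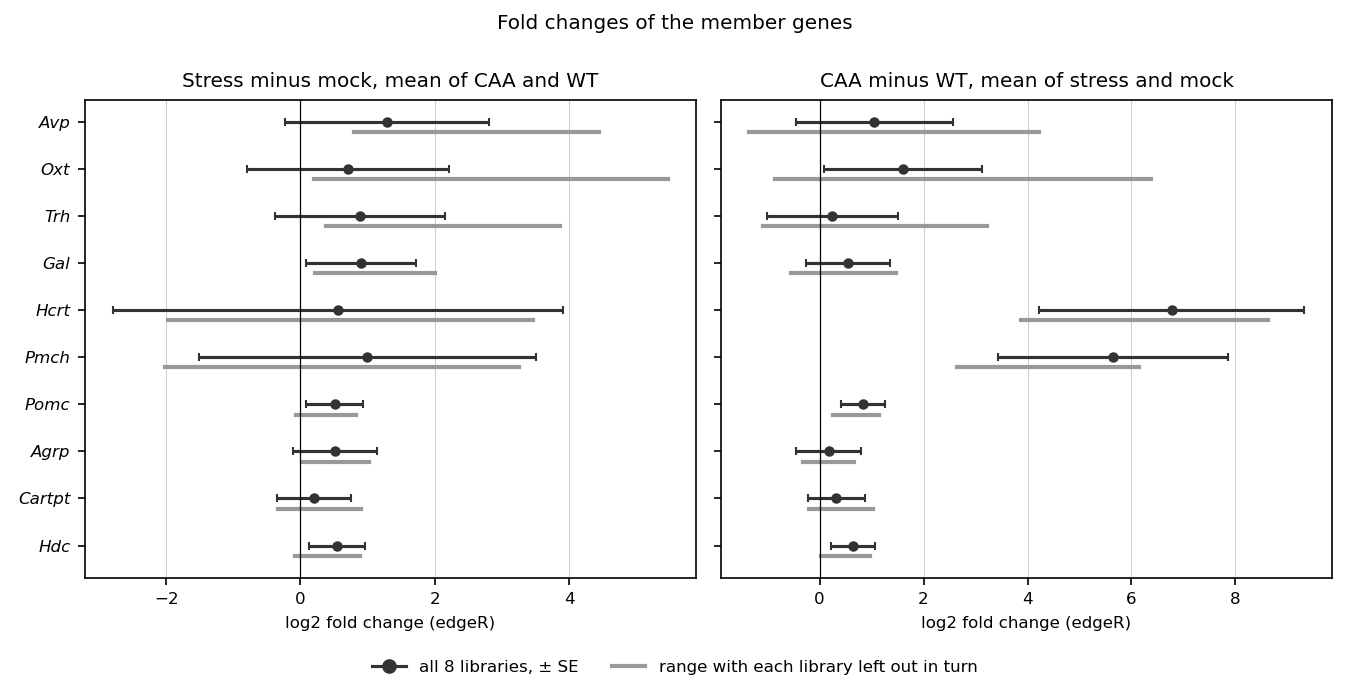
Log2 fold changes of the 10 genes for stress minus mock (left) and CAA minus WT (right), as points with bars of 1 SE from all 8 libraries, and grey lines for the range when each library was left out in turn. The grey lines for Avp, Oxt, Hcrt, Pmch and Trh reach 3.23 or more on both sides of the plot. Those of stress extend below 0 for Pomc, Hcrt, Pmch, Cartpt and Hdc. Those of CAA extend below 0 for Avp, Oxt, Agrp, Trh, Cartpt and Gal.

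The range between the highest and the lowest library set these genes apart from most of the transcriptome in size. On the log2 scale it was 8.41 for Avp and 8.33 for Oxt, the 3rd and 4th widest of 14913 genes of at least 1 CPM, whose median was 0.71. Pmch (7.06), Hcrt (6.93) and Trh (6.45) ranked 10th, 12th and 13th. Gal (3.48) ranked 112th, Cartpt (2.51) 313th, Pomc (2.09) 548th and Hdc (1.97) 668th. Agrp, whose mean was 0.415 CPM, spanned 1.54 and would rank 1425th. Counting error widens the range at low counts, as in Agrp, Pomc and Hdc, and genes of like abundance were not compared. The genes most like the less variable members lay closer in absolute terms, at 0.31 for Pomc (Inmt), 0.23 for Agrp (Aspdh), 0.36 for Cartpt (Tekt4) and 0.33 for Hdc (Cfap126), against medians over all genes of 0.69, 0.61, 0.84 and 0.71. Those medians also depend on the spread of each member itself. WT mock 1 was the lowest library for 7 of the 10 genes. Some of these were near ties. For Pomc, WT mock 1, WT stress 1 and CAA mock 2 each held 18 counts, and for Pmch WT mock 1 held 2 and WT mock 2 held 3. No share over all genes was computed for this count. The highest library was CAA stress 1 for 5 genes (Pomc, Agrp, Pmch, Cartpt and Hdc), CAA stress 2 for 4 (Avp, Oxt, Trh and Gal) and CAA mock 1 for Hcrt. WT mock 1 and CAA stress 1 were the only female libraries, and the part of sex in these ranks was not tested.

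Levels were compared between genes in FPKM, as means over the 8 libraries. Avp was highest at 45.8 ± 51.7 FPKM (SD, n = 8), followed by Oxt at 25.1 ± 23.8, Cartpt at 11.4 ± 4.75, Trh at 8.02 ± 4.85 and Pmch at 7.93 ± 14.5. Hcrt (4.06 ± 7.36 FPKM), Gal (3.05 ± 2.23), Pomc (1.23 ± 0.881), Agrp (0.406 ± 0.202) and Hdc (0.345 ± 0.181) came after. Each gap between neighbours in this order was smaller than the larger of their SDs. By the median the order changed for Hcrt, which came last at 0.181 FPKM, and for Pmch at 0.407 FPKM, because 6 libraries were near 0.

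Genes that act with these peptides did not pass the test either. None of the 14 tested receptors of the 18 listed, 12 genes of peptide processing, 4 of peptide or histamine breakdown, and 16 tested of 24 other neuropeptide precursors passed in edgeR in any of the 7 comparisons. The median log2 fold changes for stress and for CAA were 0.31 and 0.18 for the receptors, 0.070 and -0.019 for processing, -0.25 and -0.21 for breakdown and 0.25 and -0.16 for the other precursors. At an unadjusted p under 0.05 the receptors held 2 genes for stress and 0 for CAA, processing 2 and 3, breakdown 0 and 1, and the other precursors 3 and 5. Over all genes tested the shares were 3.82% for stress and 8.38% for CAA. The mean centred level of the processing genes stayed between -0.10 and 0.11 in the 8 libraries, and that of the members ranged from -2.51 in WT mock 1 to 1.90 in CAA stress 1.

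Among receptors, the TRH receptor gene Trhr2 lay at 2.68 ± 0.958 CPM under stress and 1.43 ± 0.587 CPM in mock libraries (SD, n = 4 each; log2 fold change 0.89 ± 0.32 SE, edgeR adjusted p = 0.920). The histamine receptor gene Hrh3 lay at 98.9 ± 21.9 CPM under stress and 68.0 ± 14.4 CPM in mock libraries (log2 fold change 0.53 ± 0.19 SE, edgeR adjusted p = 0.920). Pcsk1, a convertase that cuts peptide precursors, lay at 42.9 ± 6.51 CPM in CAA and 64.3 ± 9.65 CPM in WT (log2 fold change -0.59 ± 0.12 SE, edgeR adjusted p = 0.421), and passed in DESeq2 (adjusted p = 0.0205). Pcsk1n, its inhibitor, lay at 1120 ± 278 CPM in CAA and 740 ± 98.3 CPM in WT (log2 fold change 0.59 ± 0.16 SE, edgeR adjusted p = 0.508). The levels of the convertase and of its inhibitor thus differed in opposite directions without passing in edgeR. Trhde, the enzyme that degrades TRH, had a log2 fold change for CAA of -0.41 ± 0.15 and Lnpep, which cleaves oxytocin and vasopressin, of -0.22 ± 0.13 (SE; edgeR adjusted p = 0.578 and 0.656).

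Grp, the gastrin-releasing peptide gene, lay at 3.78 ± 1.16 CPM under stress and 10.1 ± 4.86 CPM in mock libraries (SD, n = 4 each; log2 fold change -1.36 ± 0.28 SE, edgeR adjusted p = 0.920). It passed in DESeq2 (adjusted p = 0.0185). Its counts were 98 and 74 in CAA stress, 211 and 266 in CAA mock, 51 and 55 in WT stress, and 176 and 65 in WT mock. The CAA stress libraries were below the CAA mock libraries, and WT mock 2 lay close to WT stress. Without WT mock 2 it passed in edgeR too (log2 fold change -1.63, adjusted p = 0.0309).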

How the data were processed

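The authors aligned reads with HISAT2 2.0.5 and made raw counts per gene with featureCounts 1.5.0-p3 on mm10, per the submitters' processing notes; RNA came from RNeasy columns and libraries from an Illumina kit, per the labels. The sources used here name neither parameters, strand setting nor annotation. A second deposited table holds FPKM, in which count times length over FPKM gave 1 denominator per library, 0.989 to 1.05 times its total. Groups were taken from titles.

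The test on counts was edgeR 4.0.16 (R 4.3.3): filterByExpr (minimum count 10, minimum total 15; 17182 genes holding 99.9% of counts), TMM, and a robust quasi-likelihood fit of 4 group means over 8 libraries (4 residual degrees of freedom), with two-sided Benjamini-Hochberg adjustment over all genes tested. The 7 comparisons were stress averaged, CAA averaged, their interaction and the 4 single contrasts. Centred levels use log2 CPM with 2 counts added. A trial on simulated data was also run, but its outcome is not given here and no result rests on it. No pair of libraries was a duplicate (chi-square over degrees of freedom 8.31 to 70.4). Replicate numbers did not pair the libraries.

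The members, the lists (from general knowledge) and the alternatives were chosen with earlier results of these data known. The naming rule takes all members; for receptors, processing, breakdown and other precursors, up to 4 genes past the threshold, else the 2 with the smallest p in the averaged comparisons; and, per single comparison, members past the threshold and the member with the smallest p. Marker lists are given as means or sums, and a single marker only where a result turns on it. Otp was an exception, named after its values were seen. Alternatives were DESeq2 size factors, no filter, DESeq2 1.42.0, a replicate block, the compared libraries alone, limma 3.58.1 on log2 FPKM (pseudocount 1 or 0.1), each library left out, a term for sex, and omission of CAA mock 2 with WT mock 1. Figures used matplotlib 3.10.9. Promoters are from RefSeq (GRCm38.p6); 9 of 10 members matched. Of the members' coordinates, 9 of 10 equal those of GENCODE vM21.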

Additional observations from a re-analysis of the deposited data

Results flagged for a closer look

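Each member's log2 levels were examined in the 4 CAA, the 4 WT, the 4 stress and the 4 mock libraries, for 1 library far from the other 3. Of the 40 sets, 8 held such a library. The nominal rate of about 1 in 20 assumes independent sets, and these sets share libraries. No share over all genes tested was computed, so the count is a description. The number given is the gap to the nearest other library over the whole range of the set. Among WT libraries, WT mock 1 stood low for Oxt (0 counts, 0.886), Trh (2 counts, 0.95) and Cartpt (71 counts, 0.992), and among mock libraries it stood low for Cartpt (0.929). Among CAA libraries, CAA mock 2 stood low for Trh (24 counts, 0.849). Among stress libraries, CAA stress 1 stood high for Pomc (82 counts, 0.832) and Pmch (525 counts, 0.86). Among mock libraries, CAA mock 1 stood high for Hcrt (226 counts, 0.854).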

How the results depend on the processing

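No member passed the threshold in any of the 7 comparisons under any alternative run. DESeq2 gave no adjusted p for some members in some comparisons. Of 561 recomputed values of the 33 named ones, 520 kept their direction and side of the threshold, 33 changed sign and 8 newly passed the threshold. The 8 were Grp, Hrh3, Pcsk1, Pcsk1n and Ucn with no filter (edgeR adjusted p = 9.11e-06, 0.0278, 0.00392, 0.000763 and 0.00164), Pcsk1 and Grp in DESeq2, and Grp without WT mock 2. The causes were not tested. The numbers of all genes past the threshold are given in the order stress averaged, CAA averaged, interaction, stress in CAA, stress in WT, CAA under stress and CAA under mock. They were 0, 2, 0, 0, 0, 2 and 2 as reported, 49, 223, 17, 112, 11, 120 and 82 with no filter, and 3, 46, 4, 14, 0, 11 and 20 in DESeq2. With only the libraries compared, CAA under mock gave 1. In limma on log2 FPKM, CAA under stress gave 0 and CAA under mock 1 with either pseudocount. With a term for sex, stress in CAA gave 2, CAA under stress 1 and CAA under mock 7. Without CAA mock 2 and WT mock 1, CAA averaged gave 4 and the interaction, stress in CAA and stress in WT gave 1 each. Without CAA stress 1 and CAA mock 1, chosen after seeing the data, CAA under stress gave 0. Leaving out 1 library at a time gave 0 to 4, 2 to 5, 0 to 1, 0 to 0, 0 to 2, 0 to 2 and 1 to 3.

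Sign changes for stress averaged were as follows. Leave-one-out ranges were -0.066 to 0.83 for Pomc, -1.97 to 3.46 for Hcrt, -2.02 to 3.25 for Pmch, -0.33 to 0.91 for Cartpt and -0.083 to 0.88 for Hdc. Each of these 5 was lowest without CAA stress 1. Without CAA mock 2 and WT mock 1 the values were -0.29 for Oxt, -0.057 for Trh and -0.12 for Cartpt. Without CAA stress 1 and CAA mock 1 Cartpt gave -0.35. In limma with a pseudocount of 1 Hcrt gave -5.94e-05. For Pomc the leave-one-out range was -0.12 to 1.65 for the interaction and -0.12 to 1.66 for stress in CAA.

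For CAA averaged, leave-one-out ranges were -1.36 to 4.22 for Avp, -0.86 to 6.38 for Oxt, -0.32 to 0.67 for Agrp, -1.09 to 3.23 for Trh, -0.21 to 1.02 for Cartpt and -0.55 to 1.48 for Gal. The lowest was without CAA stress 1 for Cartpt and without CAA mock 1 for the other 5. Without CAA mock 2 and WT mock 1 Cartpt gave -0.056. Without CAA stress 1 and CAA mock 1 the values were -1.16 for Avp, -0.64 for Oxt, -0.59 for Agrp, -0.96 for Trh, -0.19 for Cartpt, -0.36 for Gal and -0.16 for Hdc.

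With the replicate number as a block, 0 members passed in each comparison and the counts of genes were the same as reported. The log2 fold change for CAA was then 6.36 for Hcrt and 5.10 for Pmch. Deviations of same-numbered libraries correlated at -0.317 to 0.161 between groups, so the numbers were not taken to pair the libraries. With 2 libraries a group an exact permutation test cannot go below p = 0.333. Counts under about 10, as for Hcrt in WT or Agrp, leave folds that counting error alone can move.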

Other observations

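Genes of other peptide and serotonin neurons were also uneven between replicates of some groups. Ucn, which encodes urocortin, had 25 and 3 counts in CAA stress, 17 and 20 in CAA mock, 0 and 0 in WT stress, and 2 and 11 in WT mock (log2 fold change for CAA 4.17 ± 1.11 SE, edgeR adjusted p = 0.508). Rln3, the relaxin-3 gene of the pons, had 36 and 2 counts in CAA stress, 3 and 16 in CAA mock, 1 and 1 in WT stress, and 5 and 1 in WT mock. Tph2, the serotonin synthesis gene of the raphe, had 168 counts in CAA stress 1 and 223 in CAA mock 2, against 4 to 26 in the other 6 libraries. CAA mock 2 was thus high in Tph2 and low in Avp and Oxt, while its Cartpt level was 18.4 CPM. Its Ucn count was close to that of CAA mock 1.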
